A study of Mus musculus with 16 samples.

Results

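A set of 362 regions of the mouse genome carried less H3K27ac in plasmacytoid dendritic cells (pDC) than in the common dendritic cell progenitor (CDP). Each overlapped a listed region, mostly a broader one, with more H3K27ac in classical dendritic cells (cDC) than in CDP. Both dendritic cell types arise from CDP. The set was 362 of the 69958 regions that the authors' deposited list gives as differing between CDP and pDC, and of the 68385 autosomal ones. A region was taken when its mean CDP signal was at least 2-fold above its mean pDC signal, with both CDP libraries above both pDC libraries. The region of the CDP and cDC list that overlapped it most had to be at least 2-fold higher in cDC than in CDP, with both cDC libraries above both CDP libraries. That overlap had to cover at least 50% of the shorter of the pair. The regions were thus selected on the CDP, pDC and cDC signals, and the opposite differences in cDC and pDC are described below without a test.

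The cells were sorted cDC, pDC, CDP and multipotent progenitors (MPP) of C57BL/6 mice, with 2 H3K27ac libraries for each cell type. All 4 groups share the strain, and the labels name no treatment, genotype, age or sex. No label tells whether both libraries of a cell type had different animals or cultures as their source. The listed values carry no replicate number, so first-listed and second-listed name the order of the 2 libraries in a list.

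Acetylation of lysine 27 of histone H3 marks active promoters and enhancers, and enhancers carry it in a pattern that differs between cell types. cDC take up antigen and present it to T cells, whereas pDC answer viral nucleic acid with type I interferon. The choice between them is controlled by opposing transcription factors: Id2, an inhibitor of E proteins, is needed for cDC, and the E protein E2-2 (gene Tcf4) maintains pDC. MPP precede CDP in this lineage. In sorted populations, less of the mark in every cell and fewer cells with the mark cannot be told apart. The regions are given by their mm9 coordinates. No annotation or genome of that build was used here, so no gene, motif or sequence was assigned to a region, and the cell types were not checked against marker genes.

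Regions with this opposite behaviour were rare among the regions that pDC had less of. In the CDP and pDC list, 21.4% of all regions were at least 2-fold lower in pDC with separate libraries, and 14781 of these were autosomal. All 14781 overlapped a region of the CDP and cDC list. That region was at least 2-fold lower in cDC too, with separate libraries, in 8811 of them (59.6%), and met neither the rule for lower nor that for higher in 5577 (37.7%). The share of all regions of the CDP and cDC list that were lower in cDC by this rule is not given here, so the 59.6% has no background. The overlapping region was at least 2-fold higher in cDC in the 362 regions described here (2.45%), while 11% of all regions of the CDP and cDC list met that rule. The 11% counts each region of that list once, on all chromosomes and without an overlap, so its basis differs from that of the 2.45%. The share by overlap among all autosomal regions of the CDP and pDC list is not given here. Since both lists share the CDP libraries, a high or low CDP value moves both ratios, and these shares are descriptions. For the remaining 31 the overlap was too small.

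**Figure D1:**
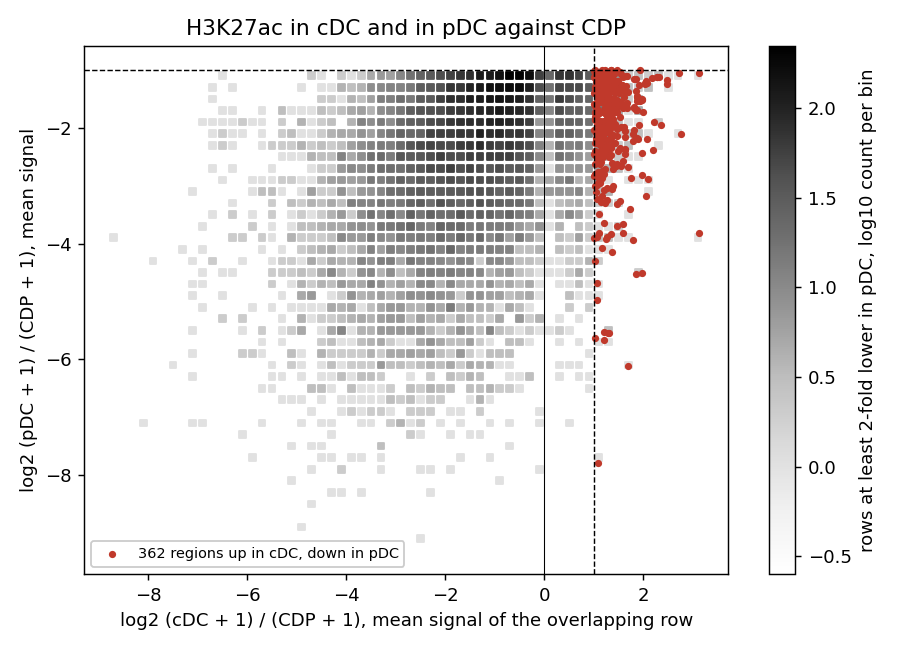
Autosomal regions at least 2-fold lower in pDC than in CDP, by the log2 ratio of cDC to CDP in the overlapping region (horizontal) and of pDC to CDP (vertical), with a pseudocount of 1. Grey squares give the number of regions per bin and red points the 362 regions, which lie beyond both dashed lines because the rule put them there, at the thin right edge of the grey cloud.

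The difference in pDC was measured over short regions and that in cDC over broader ones. At the 362 regions the 2 pDC libraries had median signals of 43.5 and 59.5, against 162 and 204 in CDP, and the median difference was 3.30-fold lower in pDC (quartiles 2.43 and 5.20). In the overlapping regions of the CDP and cDC list the cDC libraries had median signals of 1251.5 and 1775.5, against 523.5 and 635 in CDP, and the median was 2.39-fold higher in cDC (quartiles 2.17 and 2.76). The pDC signal was at least 4-fold lower in 138 regions, while the cDC signal was at least 4-fold higher in 20. Only 39 regions differed at least 3-fold in both directions, and 6 at least 4-fold. The units are the authors' signals, which were scaled by library within each list, so levels are set against each other only within a list unless a rescaling is given. Ratios are those of means after adding 1. In the authors' deposited lists the −log10 p of these regions had a median of 16.7 for CDP against pDC and of 89.3 for CDP against cDC.

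The 10 regions with the largest smaller one of the 2 differences were spread over 9 sites on 8 chromosomes. The first of them was chr12:25986151-25986500. It had pDC signals of 0 and 14 and CDP signals of 90 and 134, 14.1-fold lower, and the 9200 bp region around it held 8848 and 9383 units in cDC and 1017 and 1075 in CDP, 8.71-fold higher. On chromosome 6, the region from 3437851 to 3438100 had 4 and 32 in the pDC libraries against 64 and 97 for CDP, and its surroundings showed 3948 and 4198 in cDC, beside 445 and 760 in CDP, 6.75-fold higher. The pDC libraries differed widely here, and the rule required both to lie below the CDP libraries.

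The region chr15:7917851-7918250 had pDC signals of 23 and 11 and CDP signals of 80 and 184, and its gain had cDC signals of 1126 and 2845 and CDP signals of 308 and 617. The cDC libraries differed widely in this gain, and the rule required both to lie above the CDP libraries. Chromosome 13 carried a pair of these regions. From 99950901 to 99951250, pDC had 13 in each library against 103 and 149 in CDP, a 9.07-fold difference, and cDC was 4.15-fold higher than CDP. From 43884601 to 43886250, a region of 1650 bp, pDC had 145 and 295, while CDP had 1233 and 468, and cDC stood at 5303 and 12996 against 2484 and 1074 for CDP, 5.14-fold higher. This was the longest of the 10, and its CDP libraries disagreed in both lists. On chromosome 17, the regions from 47357101 to 47357450 and from 47359701 to 47360450 lay in the same broad gain of 3.93-fold in cDC and were 22.8-fold and 7.0-fold lower in pDC.

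**Figure D2:**
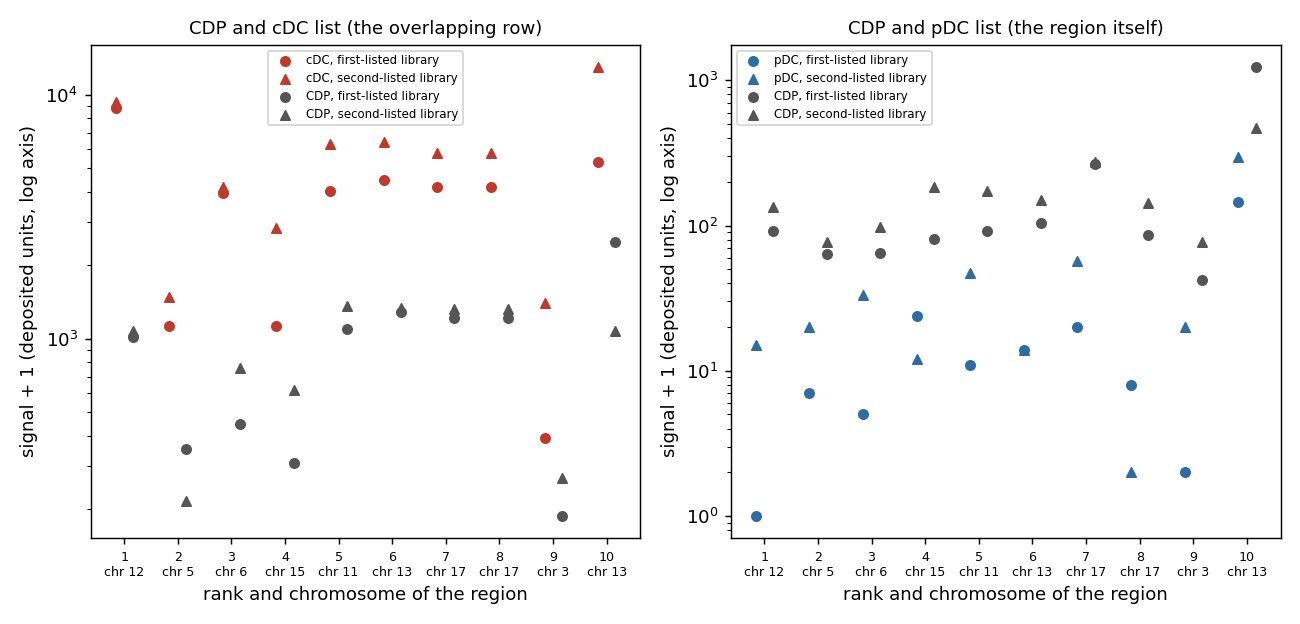
Signal plus 1 on a log axis in each library for the 10 regions, in the CDP and cDC list (left panel, the overlapping region) and in the CDP and pDC list (right panel, the region itself). Circles are first-listed and triangles second-listed libraries, and within each region the cDC or pDC points stand left of CDP. In rank 1, cDC had 8848 and 9383, while CDP had 1017 and 1075, and in rank 10 the CDP libraries lay farthest apart.

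At the edge of the rule the values were close to 2-fold. Of the regions just inside, chr6:134176901-134177050 held 18 and 26 units in pDC and 51 and 39 in CDP, and chr14:66805351-66805550 had 32 and 30 in pDC against 82 and 44. Both were exactly 2-fold lower in pDC, at a length of 150 and 200 bp. Of those just outside, chr15:86114501-86114950 had 109 and 109 in the pDC libraries against 215 and 222 for CDP, a 1.995-fold difference, beside a 3.02-fold gain in cDC. The region chr2:5692301-5692700 was 2.39-fold lower in pDC, but its surroundings showed 1064 and 1718 in cDC, beside 542 and 851 in CDP, a 1.996-fold difference.

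The listed regions lower in pDC were short, and the listed gains in cDC that held them were broad. These are lengths of listed regions and do not show that the loss in pDC was confined to the short ones. The 362 regions had a median length of 450 bp, from 150 to 4950 bp, whereas all autosomal regions of the CDP and pDC list had a median of 600 bp. The regions of the CDP and cDC list that held them had a median length of 2050 bp, against 750 bp for the 8267 autosomal regions at least 2-fold higher in cDC with separate libraries. A longer region can hold more short ones, so this difference in length is not independent of the choice. In 338 of 362 cases the region lay wholly inside the broader one, and the median share of the broader one that it filled was 25.3%. The 362 regions fell into 318 such broad gains, of which 275 held 1 region, 42 held 2 and 1 held 3.

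Short regions that lie inside a longer one cover its middle more often than its ends by geometry alone, and the profile along the broad gains is given only as a description. In the bin just past the midpoint, 58.8% of the 318 broad gains were covered by a region lower in pDC, against 6.6% at the start and 6.29% at the end. After CDP signals of the CDP and cDC list were put on the scale of the CDP and pDC list, with the factors 0.879 and 0.892 found at identical bounds, CDP signal per base in the 362 regions was a median of 1.5 times that of the broad gain around them, and above it in 336. The regions were chosen for CDP above pDC, and this density was not computed for other short regions, so it is a description too. Over all 318 broad gains, of 731900 bp in total, 36.2% was listed as lower in pDC, 7.82% as higher in pDC, and 56.0% was not in the CDP and pDC list. Absence from that list is not a measurement of equal signal. Some bases listed as higher in pDC were found in 58 of the 318. A listed region higher in pDC lay less than 1 kb away from 57 of the 362 regions (15.7%), against 13.3% of the 14781 regions lower in pDC.

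The top-ranked site on chromosome 12 shows how the signs can alternate within a single gain. The 8.71-fold gain in cDC ran over all of 25984001 to 25993200. Within it, pDC was lower than CDP from 25986151 to 25986500 and again from 25988301 to 25988500, where pDC stood at 28 and 30 against 40 and 83 for CDP. From 25990401 to 25991650, pDC had 832 and 937, while CDP had 73 and 35, 16.1-fold higher. The site therefore held less H3K27ac in pDC at 2 short parts and more at a longer one. In the cDC and pDC list, the almost identical region from 25984101 to 25993100 had cDC signals of 8607 and 9238 and pDC signals of 1608 and 1665, 5.45-fold higher in cDC.

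**Figure D3:**
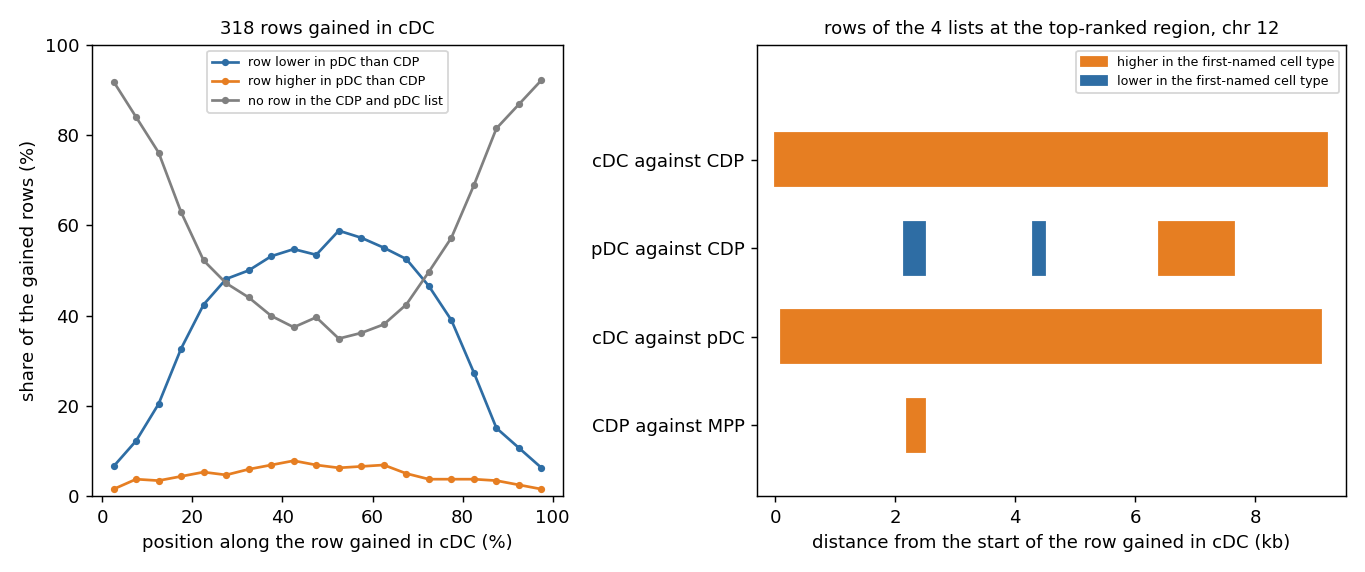
Left, the share of the 318 broad gains covered at each position along them by a region of the CDP and pDC list that is lower in pDC (blue), higher in pDC (orange) or by none (grey). Right, the listed regions of the 4 comparisons at the chromosome 12 site, by distance in kb from the start of the gain, orange where the first-named cell type is higher and blue where it is lower: a single 9.2 kb gain in cDC holds 2 short parts lower in pDC and a longer part higher in pDC.

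To compare pDC with CDP over the whole of a broad gain, the ratio of cDC to CDP was divided by that of cDC to pDC, where the cDC and pDC list had a region matching at least 80% of the longer of the pair. The lists were scaled separately. At regions with identical bounds in both lists, however, the cDC signals differed by a median factor of only 1.00 and 0.996 in the 2 libraries. A match was found for 266 of the 318 broad gains. pDC was lower than CDP in 257 of the 266, with a median of 2.34-fold lower, and at least 2-fold lower in 168. Signals were also summed over regions of the CDP and pDC list with their midpoint in the gain. By these sums pDC was lower in 288 of the 318 gains and higher in 28. Neither count was made for other gains in cDC, so no background share stands beside them. The short regions had a floor of 2-fold by the rule and the gains had none, so their medians are not compared. The same libraries chose the regions, and both counts include signal of the chosen short regions. The counts are therefore no separate evidence of the loss and do not show how far it extends beyond those regions.

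In 9 of the 266 matched gains, pDC as a whole lay above CDP. The largest such value was on chr5:86343651-86345400, where cDC was 4.60-fold above CDP and 2.76-fold above pDC, so that pDC came out at 1.67-fold of CDP. Its short region at the edge, from 86343551 to 86343750, held 6 and 19 units in pDC and 63 and 76 in CDP. The chromosome 12 site came out at 1.60-fold of CDP. Both are among the 10 regions that ranked first for the size of both differences. The lower signal in pDC holds there for the short region and not for the broad gain. At the other end, pDC was 54.7-fold lower than CDP over chr15:101209301-101210500, where the cDC and pDC list had cDC signals of 756 and 856 and pDC signals of 12 and 0. It was 45.1-fold lower over chr3:108998451-109000000. Next in order, chr9:65928851-65931000 had 1021 and 1241 in the cDC libraries against 22 and 0 for pDC in the cDC and pDC list, and chr11:70280001-70283400 had 2229 and 3375 against 88 and 50. cDC was thus 94.3-fold and 40.0-fold above pDC there, and pDC came out 45.0-fold and 19.6-fold lower than CDP over the whole gains.

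**Figure D4:**
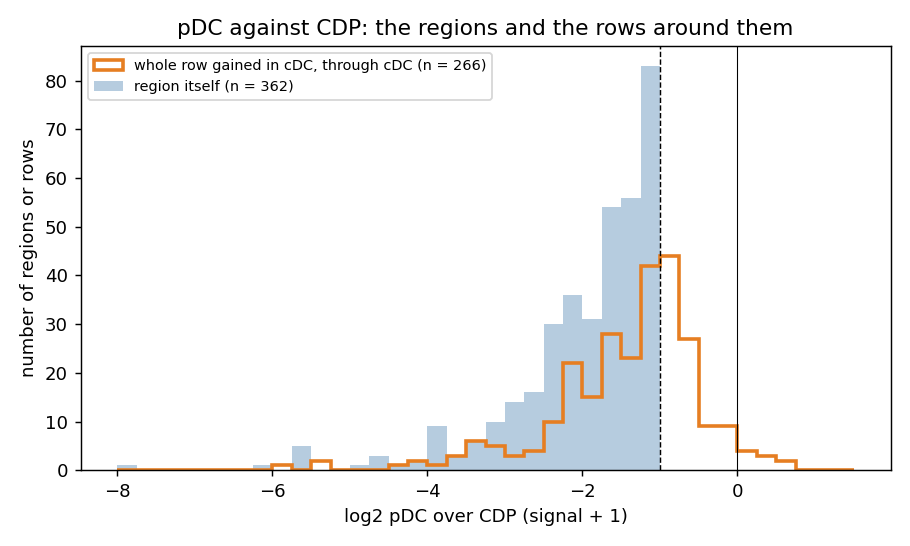
Number of regions by log2 ratio of pDC to CDP, for the 362 regions themselves (filled blue) and for the 266 broad gains around them, computed through cDC (orange line). The dashed line marks the 2-fold limit of the rule, which all 362 regions meet. The orange line peaks near it, and 9 gains lie above 0.

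For 65 of the 362 regions the overlap covered at least 50% of the longer region too. Their median length was 1200 bp, and that of the gains 1900 bp. Their median was 3.31-fold lower in pDC and 2.23-fold higher in cDC, close to the values of the full set. Among these, chr9:110996801-110998400 had the largest smaller difference, at 134 and 255 in pDC and 607 and 685 in CDP. The region from 110996551 to 110999700 around it had 2491 and 4514 in the cDC libraries against 883 and 888 for CDP, 3.95-fold higher. On chromosome 8, the region from 23768151 to 23769350 showed 139 and 177 in pDC, beside 579 and 1103 in CDP, 5.30-fold lower, and cDC was 2.80-fold higher. The region chr14:77946151-77947300 had pDC signals of 45 and 78 and CDP signals of 317 and 499, 6.54-fold lower, and cDC had 1464 and 1373 against 433 and 656, 2.60-fold higher. In the MPP and CDP list, which covered 64 of the 65, the CDP mean was above the MPP mean in 49, against 45.7% of all regions of that list. Among the covered ones of the 14781 regions lower in pDC, the share was 61.1%. The CDP libraries took part in the rule, so the count of 49 is not independent of the choice.

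Joining regions less than 1 kb apart gave 324 stretches. The longest, a single region on chr9:120023751-120028700, held 1153 and 1414 units in pDC and 4368 and 4189 in CDP, 3.33-fold lower. Around it cDC stood at 8787 and 12629 against 5158 and 4859 for CDP, 2.14-fold higher. A stretch of 2 regions on chr2:79535551-79539150 was the steepest of the 5 longest, at summed signals of 200 and 135 for pDC against 2474 and 2770 for CDP, 15.6-fold lower. The stretches on chr14:68504901-68508750, chr8:95376801-95380550 and chr7:73453301-73456700 were 3.52-fold, 3.36-fold and 5.47-fold lower in pDC. In all 5 both pDC libraries lay below both CDP libraries, as the rule required of each region.

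At some regions the pDC signal was near or at 0. It was listed at 0 in both pDC libraries of 3 regions and in at least 1 library of 17. The region chr15:101209401-101209950 was listed at 0 in both pDC libraries and at 157 and 285 in CDP, and the region around it had 823 and 879 in the cDC libraries against 291 and 516 for CDP. At chr3:108998751-108999300, pDC had 0 and 6, while CDP had 196 and 207, and cDC was 2.32-fold above CDP. The region chr11:70280851-70281650 showed 11 and 5 in pDC, beside 406 and 486 in CDP, a 49.7-fold difference, and the gain around it had cDC signals of 2383 and 3581 and CDP signals of 1167 and 1753. These 3 sites were chosen after their values were seen. Among regions with any pDC signal the largest difference was 69.0-fold.

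The 10 regions with the highest cDC signal per length lay in gains of 1961 to 3514 units per kb in cDC. On chromosome 7, the gain from 87172601 to 87175300 had cDC signals of 9719 and 9256 and CDP signals of 3456 and 4527, 2.38-fold higher. Its part from 87174101 to 87175100 held 274 and 234 units in pDC and 601 and 832 in CDP, and touched a region that was higher in pDC. The region chr12:25777251-25786650 had 24792 and 26516 in the cDC libraries against 4683 and 6367 for CDP, 4.64-fold higher. Its part from 25781601 to 25782500 showed 68 and 152 in pDC, beside 341 and 489 in CDP. This gain lies over 100 kb away from the top-ranked site.

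Another pair of these 10 was longer. On chromosome 19, the region from 20463951 to 20465650 had pDC signals of 253 and 339 and CDP signals of 1760 and 2381, 6.97-fold lower, and its gain had cDC signals of 2977 and 4024 and CDP signals of 1508 and 1949. The region chr2:129205201-129207400 held 442 and 1014 units in pDC and 2570 and 2305 in CDP, 3.34-fold lower, and the gain around it had 4717 and 7444 in the cDC libraries against 3038 and 2639 for CDP, 2.14-fold higher.

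In the list of cDC against pDC, each of the 362 regions overlapped a listed region that was higher in cDC, as 43.0% of all regions of the list were. In 357 of them it was at least 2-fold higher with separate libraries, a rule that 12.9% of all regions of the list met. These are the libraries that chose the regions, so a high count follows from the rule. The median was 6.07-fold higher in cDC (quartiles 4.49 and 9.62). The smallest value was on chromosome 7 at the region from 86611851 to 86612150, where the longer listed region showed 7917 and 8968 in cDC, beside 7850 and 6018 in pDC, 1.22-fold higher.

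Some of the regions lay near each other. The same grouping was not computed for other listed regions, so the counts have no background and do not show clustering. Grouping those less than 100 kb apart, a distance chosen after seeing the data, left 210 alone and put 152 into 62 groups of at least 2. Of these groups, 33 held more than 1 broad gain. The largest was on chr8:85659251-85741300, with 9 regions in 7 broad gains. Its summed signals were 215 and 259 in pDC against 814 and 941 in CDP, and over the 7 gains 10331 and 13075 in cDC against 4698 and 5587 in CDP. At chr10:21608901-21715150, 5 regions in 3 broad gains had pDC signals of 707 and 936 and CDP signals of 2024 and 3514. A group of 4 regions on chr12:25966001-25988500 held the top-ranked site, and one of 4 on chromosome 4 ran from 135695901 to 135741900. The regions were found on all autosomes, with 6 to 26 on each.

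The MPP libraries took no part in the rule, and their list shows how the regions stood before the CDP stage. The MPP and CDP list covered 297 of the 362 regions with 293 listed regions, and 65 were not in it. The CDP mean was higher in 242 of the 297 and the MPP mean in 55, while 45.7% of all regions of that list were higher in CDP. On the log2 scale, CDP over MPP had a median of 1.05 at the regions and -0.12 over the whole list. The CDP libraries are the same in all 3 lists, and the rule asked for CDP well above pDC and well below cDC, so a high CDP value favours one condition of the rule and counters the other. These conditions were measured over regions of different length, and whether they offset each other was not tested. Among all 14781 regions lower in pDC, of which the MPP and CDP list covered 86.1%, 61.1% were higher in CDP and the median was 0.41.

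Tested per region with limma over all 60816 regions of the list, 84 of the 297 were higher in CDP and 7 lower at a Benjamini-Hochberg adjusted p under 0.05. The shares were 28.3% and 2.36%, against 4.92% and 7.51% of all regions. At an unadjusted p under 0.05 they were 150 and 15, against 12.5% and 16.1% of all regions. Without the second-listed MPP library limma called 25 higher and 0 lower, and without the first-listed MPP library 78 and 0. Without the first-listed CDP library it called 99 and 1, and without the second-listed 82 and 7. The list holds only regions that the authors called as differing between these 4 libraries, so the p-values apply to regions already chosen for a difference. The CDP libraries also took part in the rule, so the shares called are not independent of the choice of regions. These limma shares were not computed for the 14781 regions lower in pDC, which met the same condition on CDP and pDC. By a ratio of at least 2 with separate libraries, 149 of the 297 were higher in CDP and 9 lower, against 10.9% and 14% of all regions. Summed over the 293 listed regions, signals were 101377 and 123011 in CDP against 84621 and 69258 in MPP, 1.46-fold higher, while the list as a whole gave 0.910.

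The 5 regions with the largest ratio of mean CDP to mean MPP signal had little or no signal in MPP. The limma estimates, fitted to log2 values, rank the regions differently, and the largest, 6.44 ± 1.57 (SE), was at a region outside these 5. The region chr6:136608201-136608600 held 133 and 146 units in CDP and 1 and 3 in MPP, a log2 difference of 5.63 ± 0.41 (SE; limma adjusted p = 0.00335). At this place, cDC stood at 2120 and 2075 against 565 and 682 for CDP in the broader gain, and pDC had 42 and 11, while CDP had 200 and 199. The region chr16:23234501-23234700 had 64 and 56 in the CDP libraries against 1 and 0 for MPP, and chr8:73255351-73255600 showed 71 and 97 in CDP, beside 2 and 0 in MPP. At chr1:84954701-84955150, CDP stood at 166 and 188 against 6 and 0 for MPP. All of these were called higher in CDP, and at each of them signal was near 0 in MPP and present in CDP. They were picked for a large ratio of CDP to MPP, which favours MPP values near 0. That cDC was higher in the broader gain and pDC lower in the short region was fixed by the rule. The other region of the 5, chr4:135696301-135697200, had 528 and 831 in CDP, and its MPP libraries disagreed, at 35 and 1.

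A smaller number ran the other way between MPP and CDP. The region chr14:55330401-55332500 had CDP signals of 218 and 438 and MPP signals of 1145 and 1116, a log2 difference of -1.87 ± 0.41 (SE; limma adjusted p = 0.0357). Its part from 55331701 to 55332150 held 69 and 66 units in pDC and 111 and 187 in CDP, and the gain around it 618 and 543 in cDC against 184 and 344 in CDP. The region chr2:52783451-52784950 had 255 and 271 in the CDP libraries against 896 and 906 for MPP, and cDC was 3.69-fold above CDP at this place. At chr10:21711251-21715050, CDP had 1555 and 2516, while MPP had 6413 and 4935, and 2 of the 5 regions of the chromosome 10 group lie in it. At these places H3K27ac was lower in CDP than in MPP, higher in cDC than in CDP and lower in pDC than in CDP. Each comparison was made over a listed region with its own bounds, and the rule fixed the directions in cDC and pDC.

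**Figure D5:**
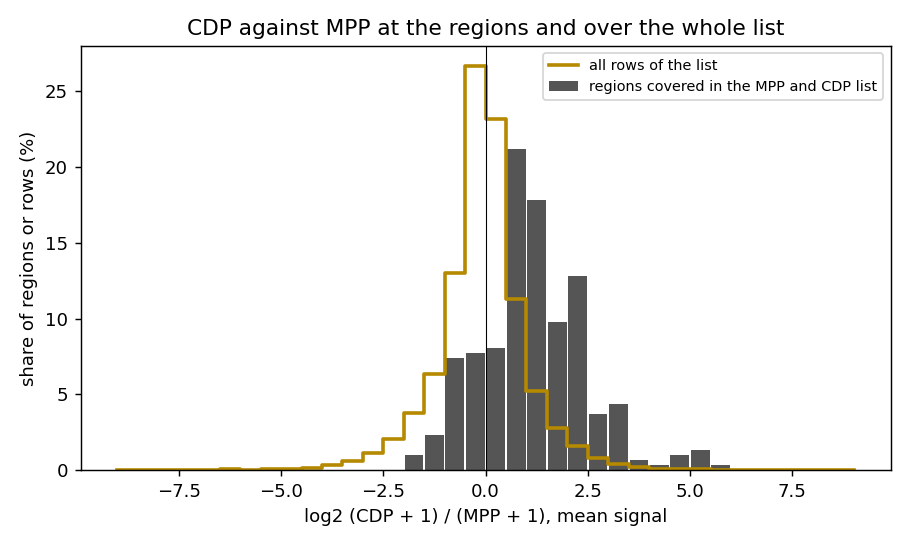
Share of regions by log2 ratio of CDP to MPP, for the 297 regions covered by the MPP and CDP list (grey bars) and for all 60816 regions of that list (line). The bars lie mostly right of 0, with 242 of 297 higher in CDP and a median of 1.05, against -0.12 for the whole list.

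Both the number of regions and which regions passed depended on single libraries. The second-listed library of cDC had the higher value in 325 of the 362 comparisons, with a median log2 excess of 0.47. Without the first-listed cDC library the rule gave 596 regions, and 355 of the 362 were among them. Without the second-listed it gave 200, with 190 of the 362. Without the first-listed CDP library it gave 373, with 241 of the 362, and without the second-listed 422, with 281. Without the first-listed pDC library it gave 316, with 292, and without the second-listed 489, with 347. Over the 362, cDC over CDP had a log2 median of 1.48 without the first-listed and 1.03 without the second-listed cDC library, against 1.26 with both. After scaling all libraries to equal autosomal totals the rule gave 598 regions, which included all 362.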

How the data were processed

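Per the submitters' processing notes, reads were aligned with BWA 0.6.1 and the build was mm9. Differential peaks came from THOR according to the title of the series, with settings not stated in the sources used here. The authors' deposited lists give for each region 2 signals per cell type, as whole numbers scaled per library and per list, and −log10 of a p-value. Which signals belong to which cell type was taken from the list names. At identical bounds, signals of the same cell type and place in 2 lists differed by a constant factor, whose log2 SD was 0.059 or less. The read depth is unknown, and the label fields name different antibody suppliers. Neither the input nor the RNA libraries were analysed here.

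The regions and gene lists were chosen with earlier results of these data known. No annotation of mm9 was used here, so the gene lists were not tested. The comparison through cDC and the 100 kb grouping were added after seeing the data. Regions named are the 10 with the largest smaller ratio, the 10 with the highest cDC signal per kb, the 5 longest stretches, the 5 largest and 5 smallest ratios of CDP to MPP, and those at the threshold. A selection of these is described, and sites named outside the rule were chosen after their values were seen. limma was fitted to log2(signal + 1) over all regions of the MPP and CDP list, with 2 libraries per group, and both the rule and limma were tested on simulated data. P-values measure the spread between these libraries, which may be technical. Software was R 4.3.3 with limma 3.58.1, and Python 3.11.15 with numpy 2.4.6, scipy 1.17.1 and pandas 2.3.3. Coordinates are 1-based. Alternatives were other ratios, pseudocounts, overlaps and lengths, a stricter p-value, leaving out each library and equal autosomal totals.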

Additional observations from a re-analysis of the deposited data

How the results depend on the processing

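The 362 regions became 1144 with a ratio of at least 1.5, 39 with at least 3, 65 with an overlap of at least 50% of the longer region, 180 with a length of at least 500 bp, and 598 with equal autosomal totals. Leaving out 1 library gave 200 to 596 regions. Equal totals also moved the median log2 ratio of cDC to pDC from 2.60 to 3.07; they shift the median of all regions by 0.46 in that list, by -0.30 for pDC against CDP, by 0.14 for CDP against MPP and by 0.082 for cDC against CDP. Regions called higher in CDP than MPP were 25 to 99 when 1 library was left out, and 149 by a ratio of at least 2 with separate libraries in place of limma. Those called lower were 0 to 7 when 1 library was left out. The other 57 of 70 recomputed values, including the 251 to 264 broad gains lower in pDC when compared through cDC, stayed within 1.5 times or within the spread between libraries. No paired analysis was possible because the listed values carry no replicate number. With 2 libraries per cell type and an unknown depth, no counting error can be given for short regions with low signals. Transcription starts were not used here, so that alternative was not run.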
